A study of Mus musculus with 18 samples.

Results

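The 49 genes described here are those whose symbol in the platform probe annotation starts with Psma, Psmb, Psmc, Psmd, Psme or Psmg followed by a number, out of 19057 genes read on the arrays. They comprise 7 alpha and 7 beta subunits of the constitutive core, 3 immunoproteasome subunits, 2 tissue-restricted core subunits, 9 subunits of the base, 8 of the lid, 4 activators and 7 assembly factors. The other 2, Psmc3ip and Psme3ip1, share the letters but encode no proteasome subunit, and they were kept apart. Each gene was read from its brightest probe, the one with the highest mean log2 value over the 18 arrays. For 28 of the 49 genes the arrays carried several probes, 86 in all.

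The proteasome degrades proteins marked with ubiquitin. Its core is a stack of alpha and beta rings with the proteolytic sites inside. A regulatory particle of base and lid binds, de-ubiquitinates and unfolds substrates, and the other activators open the core without needing ubiquitin. In skeletal muscle, glucocorticoids are known to raise protein breakdown through this pathway, and the muscle ubiquitin ligases Fbxo32 (atrogin) and Trim63 (MuRF) are its best known induced genes.

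RNA came from C2C12 myotubes, muscle fibre-like cells differentiated from a mouse myoblast line. The groups were 5 arrays of dexamethasone (Dex, a synthetic glucocorticoid, 1 uM) for 24 h and 5 of ethanol, its vehicle, for 24 h, with 4 arrays of Dex for 6 h and 4 of ethanol for 6 h. In all groups, Dex and ethanol alike, the medium held 2% horse serum and vehicle made up 0.01% of it. Triplicates are stated in the design, the labels number 4 or 5 samples a group, and no label ties the samples to separate cultures, so p-values measure the spread between these samples only, which may be technical.

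Values are linear probe intensities, with array medians of 85.2 to 86.8 at 24 h and of 99.8 to 100.4 at 6 h, so each time was read against its own ethanol arrays. Fkbp5, a glucocorticoid receptor co-chaperone used as a check of the treatment, was higher with Dex on every array, by 3.40 on the log2 scale at 24 h and 3.93 at 6 h. Of 9 myotube markers measured none lay near the array median, while 4 of 5 adipocyte and 5 of 5 osteoblast markers did. Only 2 of 4 proliferating myoblast and 1 of 5 fibroblast markers lay near it, so most fibroblast markers gave signal. The deviations of the arrays from their group means lacked 3 of 8 possible directions at 24 h and 1 of 6 at 6 h, so the model counts more independent arrays than the values hold. The adjusted p of each called member is therefore also given with the missing directions as covariates.

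None of the 49 genes differed between Dex and ethanol by more than 0.5 on the log2 scale in either comparison, and the share of all genes that did was also small, 2.27% at 24 h and 1.87% at 6 h. The genes that passed the test differed in role. At 24 h the activator gene Psme2, the base chaperone gene Psmd9 and the base ATPase gene Psmc2 fell, and the activator genes Psme3 and Psme4 rose. At 6 h the assembly genes Psmd9 and Psmg1, the lid deubiquitinase gene Psmd14 and the catalytic core gene Psmb5 fell, and Psme4 rose.

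In all, 5 of 49 were called at 24 h (limma adjusted p under 0.05 over all genes), or 10.2%, against 16.5% of all genes. They were 2 higher (4.08%, against 8.39%) and 3 lower (6.12%, against 8.1%). At 6 h 5 of 49 were called, or 10.2%, against 9.06% of all genes, 1 higher (2.04%, against 4.67%) and 4 lower (8.16%, against 4.39%). The arrays of the groups did not overlap for 2 members at 24 h (4.08%, against 16.3% of all genes) and for 5 at 6 h (10.2%, against 10.9%). Of the members 9 (18.4%) lay near the array median (a mean below 1.25 times it), against 54.8% of all genes. Among the genes above that level 12.5% of 40 members were called at 24 h, against 26.8% of 8605 genes, and 12.5% at 6 h, against 16.5%. The median log2 fold change of the members was 0.01 at 24 h and -0.02 at 6 h, and that of all genes -0.00 and 0.00.

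With the missing directions as covariates 1 member was called at 24 h (Psme2), against 8.89% of all genes, and 2 at 6 h (Psmd9 and Psmg1), against 4.46%. The count at 24 h fell to 3 without ethanol array 1, 2, 3 or 5 or without Dex array 1, and to 2 without ethanol array 4 or Dex array 3 or 4. The count at 6 h fell to 3 without ethanol array 4 or Dex array 3, and to 2 without Dex array 1. The 95% interval of the log2 fold change lay within -0.5 and 0.5 for 47 of 49 members at 24 h (95.9%, against 94.8% of all genes) and for 44 of 49 at 6 h (89.8%, against 94.9%).

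**Figure D1:**
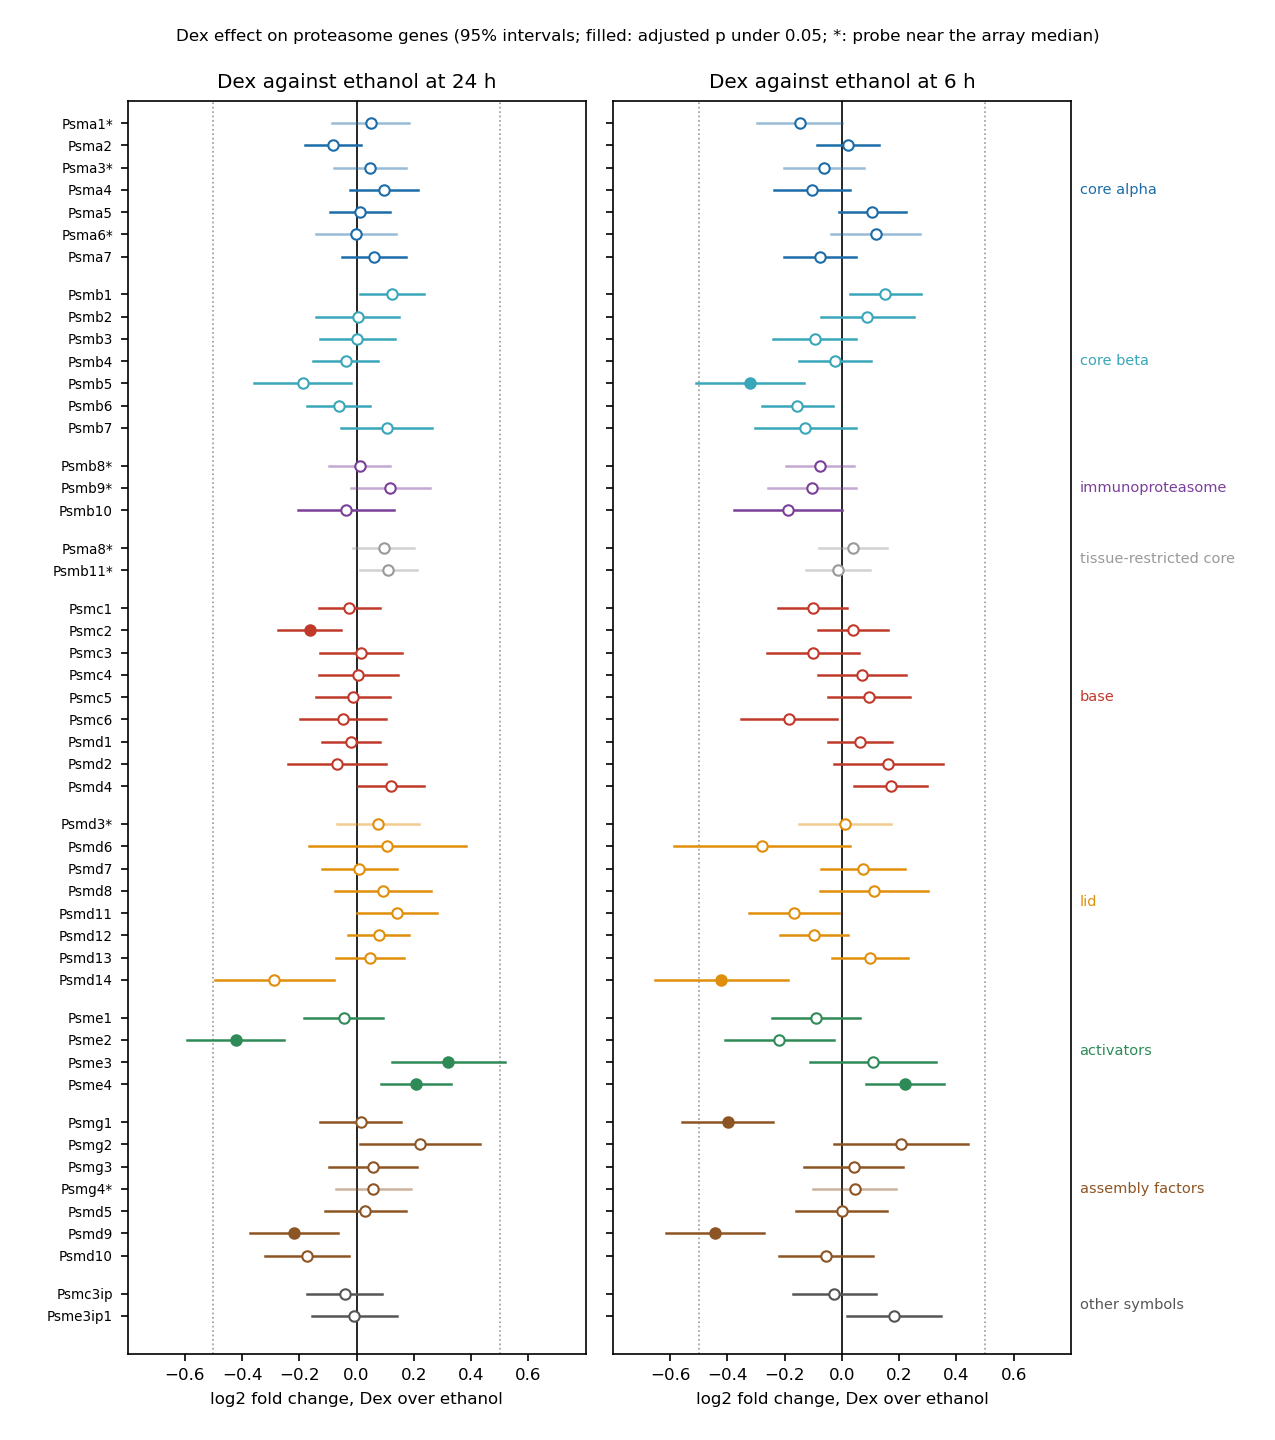
Log2 fold change of Dex over ethanol for the 49 genes at 24 h (left) and at 6 h (right), by role. Points are limma estimates, lines 95% intervals, filled points adjusted p under 0.05, dotted lines -0.5 and 0.5, and an asterisk a probe near the array median. Filled points are 5 in each panel, and all 49 points lie between the dotted lines.

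**Figure D2:**
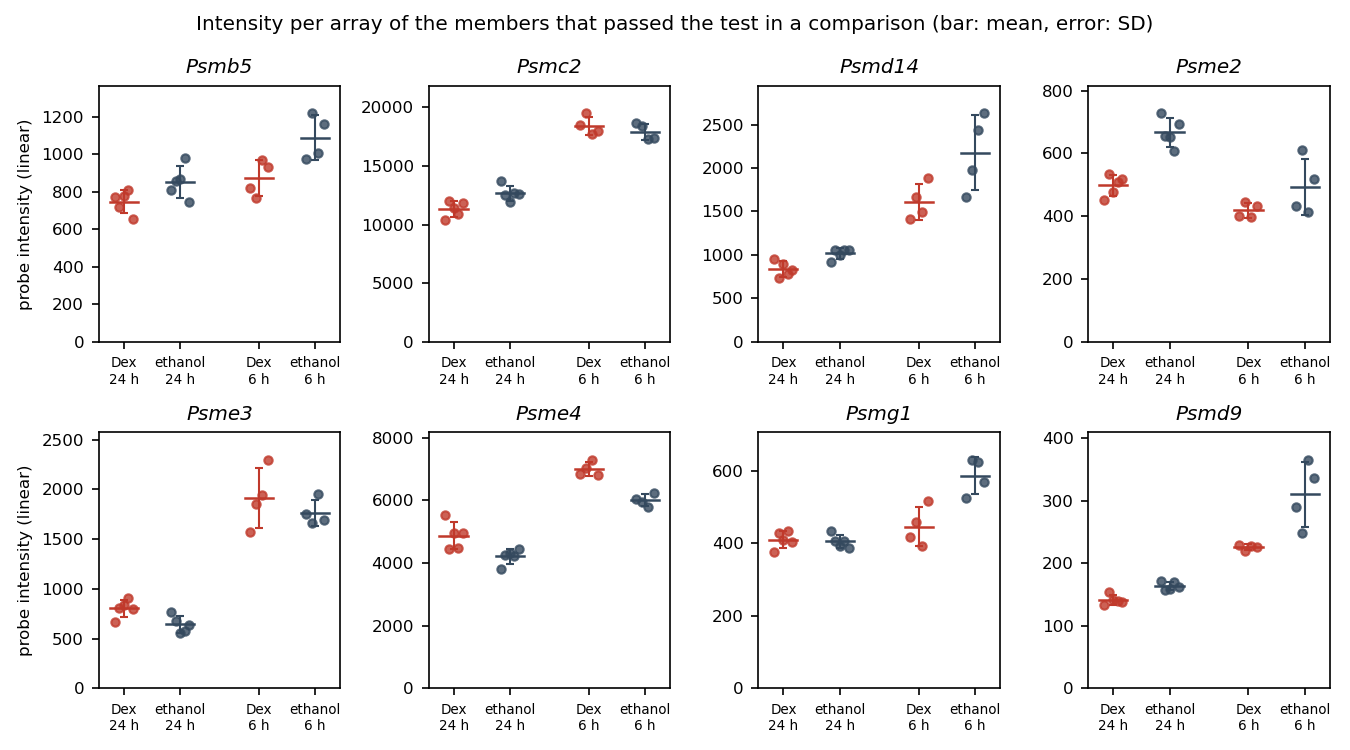
Linear intensity on each array for the 8 members called in a comparison, with Dex left of ethanol at 24 h and then at 6 h. Bars are means and error lines SD. The Dex and ethanol arrays do not overlap for Psme2 and Psmd9 at 24 h, nor for Psmb5, Psme4, Psmg1 and Psmd9 at 6 h.

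The Dex and ethanol arrays separated in a comparison for 6 members, and the promoters of 4 of them are printed as examples, 2 activators and 2 assembly factors. The others, Psmb5 and Psmd4, held 1 and 0 matches to the motif described next. They are the 250 bases before the start in RefSeq's annotation of GRCm38.p6, 5′ to 3′ on the strand of the gene: Psme2 at chr14:55591022-55591271 (minus strand), Psme4 at chr11:30771525-30771774 (plus strand), Psmg1 at chr16:95990961-95991210 (minus strand) and Psmd9 at chr5:123227940-123228189 (plus strand). Capitals mark TGANNNNGC on either strand, the core of the antioxidant response element, which the proteasome regulators Nfe2l1 and Nfe2l2 are known to bind.
Psme2: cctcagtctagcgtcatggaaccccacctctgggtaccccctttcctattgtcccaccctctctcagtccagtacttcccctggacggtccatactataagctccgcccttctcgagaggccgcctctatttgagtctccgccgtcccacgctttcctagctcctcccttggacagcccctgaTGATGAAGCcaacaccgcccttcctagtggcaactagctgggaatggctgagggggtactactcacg
Psme4: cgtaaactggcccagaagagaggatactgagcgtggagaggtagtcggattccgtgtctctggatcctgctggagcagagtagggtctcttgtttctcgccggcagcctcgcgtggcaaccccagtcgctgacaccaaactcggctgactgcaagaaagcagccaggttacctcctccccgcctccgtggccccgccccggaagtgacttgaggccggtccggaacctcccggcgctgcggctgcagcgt
Psmg1: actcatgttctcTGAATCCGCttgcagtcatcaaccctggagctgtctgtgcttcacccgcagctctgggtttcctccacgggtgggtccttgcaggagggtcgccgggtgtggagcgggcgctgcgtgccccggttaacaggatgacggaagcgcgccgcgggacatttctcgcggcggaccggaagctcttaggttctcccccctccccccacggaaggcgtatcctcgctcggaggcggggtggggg
Psmd9: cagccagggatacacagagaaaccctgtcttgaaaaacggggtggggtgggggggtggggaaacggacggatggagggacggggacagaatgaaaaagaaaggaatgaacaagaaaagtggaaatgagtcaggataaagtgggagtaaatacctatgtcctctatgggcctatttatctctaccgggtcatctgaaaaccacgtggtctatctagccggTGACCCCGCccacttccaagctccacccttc
One match lies in each of the Psme2, Psmg1 and Psmd9 windows, and the Psme4 window holds none. A second annotated start of Psme2, whose window lies at chr14:55591102-55591351, holds no match. Of the 49 members 41 had a promoter entry and 18 of them (43.9%) held the motif, against 38.7% of 27025 genes. GNACANNNTGTNC, a glucocorticoid response element searched after the data were seen, was found in 0 of 41, against 0.44% of all genes. A match describes these letters only, and no binding was measured here.

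The 7 alpha subunits of the core, which form its outer rings and gate, gave 0 calls by limma at either time and 0 at an unadjusted p under 0.05. Psma4 had 4745, 4899, 4763, 4513 and 4861 with Dex at 24 h, against 4463, 4328, 4379, 4371 and 4691 with ethanol, and a single Dex array lay within the ethanol range beside 1 ethanol array within the Dex range. Its log2 fold change was 0.10 (95% interval -0.02 to 0.21, limma adjusted p = 0.273) at 24 h and -0.10 (-0.24 to 0.03, adjusted p = 0.363) at 6 h. Psma2, with 11288 ± 342 with Dex at 24 h and 11962 ± 618 with ethanol (SD, n = 5 each), had a log2 fold change of -0.08, and at 6 h of 0.02. The brightest probes of Psma1, Psma3 and Psma6 lay near the array median, so their intervals speak of dim values. Psma1 had -0.15 at 6 h and Psma6 0.12, and neither passed. Log2 fold changes over the 7 ran between -0.08 (Psma2) and 0.10 (Psma4) at 24 h, and between -0.15 (Psma1) and 0.12 (Psma6) at 6 h.

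Of the 7 beta subunits 1 fell, at 6 h. It was Psmb5, which carries the chymotrypsin-like site. Psmb5 had 818, 767, 969 and 934 with Dex at 6 h, against 974, 1218, 1006 and 1159 with ethanol. All 4 Dex arrays lay below all 4 ethanol arrays, the closest pair at 969 and 974. The level was 0.801 times that of ethanol, or -0.32 on the log2 scale (SE 0.09, limma adjusted p = 0.0276, and 0.0876 with the missing directions). The call was lost without ethanol array 2 or 4 or Dex array 1 or 2, with adjusted p up to 0.107. At 24 h Psmb5 had 771, 720, 780, 811 and 654 with Dex, against 807, 860, 866, 981 and 748 with ethanol. The groups overlapped, and the log2 fold change of -0.19 (SE 0.08) had a limma adjusted p of 0.122.

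The other catalytic subunits were not called from their brightest probes. Psmb6, with the caspase-like site, had 6508 ± 169 with Dex at 24 h and 6798 ± 232 with ethanol (SD, n = 5 each), a difference of -0.06 on the log2 scale. At 6 h it had -0.16 (limma adjusted p = 0.117). Without Dex array 2, the highest of its group, it had -0.21 (adjusted p = 0.0321), and dropping that array by itself widens the difference. Psmb7, with the trypsin-like site, had log2 fold changes of 0.11 at 24 h and -0.13 at 6 h. The non-catalytic Psmb1 did not pass at either time. The log2 fold change was 0.12 at 24 h (95% interval 0.01 to 0.23, adjusted p = 0.12) and 0.15 at 6 h (0.03 to 0.27, adjusted p = 0.125).

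The immunoproteasome subunits replace the catalytic beta subunits in cells exposed to interferon, and 0 of the 3 were called by limma, or had an unadjusted p under 0.05, at either time. Psmb8, which takes the place of Psmb5, had 94.7, 92.1, 94.9, 88.2 and 91.3 with Dex at 24 h, against 89.9, 89.7, 89.5, 91.2 and 97.6 with ethanol. These values lie near the array median, as do those of Psmb9, which takes the place of Psmb6. Psmb10, which takes the place of Psmb7, was measured well above it, at 876 ± 31.4 with Dex at 24 h and 899 ± 51.9 with ethanol (SD, n = 5 each). Its log2 fold change was -0.04 (95% interval -0.20 to 0.13) at 24 h and -0.19 (-0.38 to 0.00, limma adjusted p = 0.225) at 6 h. Without ethanol array 3 of 6 h, the lowest of its group, it was -0.30 at an adjusted p of 0.0168. Dropping that array by itself widens the difference. The tissue-restricted core subunits, the testis alpha subunit Psma8 and the thymus beta subunit Psmb11, also lay near the array median. Their log2 fold changes were 0.09 and 0.11 at 24 h and 0.04 and -0.01 at 6 h.

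Of 11 genes of antigen presentation, for which the immunoproteasome makes peptides, 10 were measured. At 24 h 4 rose and 3 fell (8.39% and 8.1% of all genes did), and at 6 h 0 rose and 2 fell (4.67% and 4.39%). Of the 4 that rose, Irf8 and Nlrc5 lay near the array median. With the missing directions 1 (Irf8) rose and 3 fell at 24 h, and 0 rose and 2 fell at 6 h. Irf1, the interferon-induced transcription factor known to act on Psmb9, fell by 0.45 at 24 h and by 0.70 at 6 h on the log2 scale, with limma adjusted p-values of 3.7e-06 and 3.6e-08. It had 1394, 1306, 1337, 1263 and 1380 with Dex at 24 h, against 1778, 1824, 1834, 1787 and 1926 with ethanol, without overlap. Tapbp, the peptide-loading chaperone tapasin, fell by 0.41 at 24 h (adjusted p = 1.65e-05) and had 0.08 at 6 h, and Tap2, a subunit of the peptide transporter, rose by 0.27 at 24 h (adjusted p = 0.0386, and 0.0962 with the missing directions). Its groups overlapped at 24 h, and at 6 h it had -0.19 (adjusted p = 0.263).

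The base holds the ring of Psmc ATPases that unfolds substrates, the scaffolds Psmd1 and Psmd2 and the ubiquitin receptor Psmd4. Of its 9 genes 1 was called, Psmc2, one of the ATPases, at 24 h. Psmc2 had 10382, 12050, 11428, 10920 and 11848 with Dex at 24 h, against 13702, 12504, 11896, 12701 and 12591 with ethanol. The groups overlapped at 1 ethanol array. Its log2 fold change was -0.16 (SE 0.05, limma adjusted p = 0.0378, and 0.149 with the missing directions), and at 6 h it was 0.04. The call held without ethanol array 3 or Dex array 2 or 5 and was lost without any other single 24 h array, with adjusted p up to 0.116. It was also lost with a gene's probes averaged. A second, dimmer Psmc2 probe had log2 fold changes of -0.14 at 24 h and -0.29 at 6 h (limma adjusted p-values of 0.356 and 0.102). That probe was not called, and at 6 h its sign was opposite to that of the brightest.

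Psmd4 was not called, although its arrays separated at 6 h. It had 16664, 16905, 17103 and 16325 with Dex, against 15271, 16316, 13485 and 14599 with ethanol, a difference of 0.17 on the log2 scale (SE 0.06, limma adjusted p = 0.0916), and at 24 h it had 0.12 (adjusted p = 0.147). Dropping ethanol array 2, the highest of its group, by itself widens the difference, and gave a log2 fold change of 0.21 at an adjusted p of 0.035. Psmc6, another ATPase, had -0.05 at 24 h and -0.19 at 6 h (adjusted p = 0.172). The median of the 9 was -0.02 at 24 h and 0.06 at 6 h.

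The lid removes ubiquitin from substrates, and 1 of its 8 genes fell, at 6 h. Psmd14 encodes the deubiquitinase of the lid. It had 1408, 1662, 1489 and 1884 with Dex at 6 h, against 1672, 1975, 2437 and 2628 with ethanol. One Dex array, the fourth, lay above 1 ethanol array, the first. The log2 fold change was -0.42 (SE 0.11, limma adjusted p = 0.0182, and 0.0528 with the missing directions), and the call was lost without ethanol array 3 or 4 or Dex array 1 or 3, with adjusted p up to 0.0827. At 24 h Psmd14 had 953, 731, 893, 775 and 826 with Dex, against 923, 1055, 997, 1052 and 1055 with ethanol. A single Dex array lay inside the ethanol range, and the log2 fold change of -0.29 (SE 0.10) had an adjusted p of 0.0527. That value passed with each time fitted alone (adjusted p = 0.00857), with a gene's probes averaged (0.0104) and with array weights (0.0129). It also passed with the replicate number as a block (0.0268) and with dim genes left out (0.0435). It did not pass with the missing directions (0.113), nor with quantile normalization, a constant added before log2 or the lowest value subtracted. Without both 24 h arrays numbered 1 it passed (0.0279), and also without any one of 7 single arrays. Most of these were 6 h arrays, and without any one of them the log2 fold change stayed at -0.29. The others, of 24 h, were the lowest ethanol array and the highest Dex array, both numbered 1. Dropping either by itself widens the difference, to -0.32 and -0.34.

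Psmd11, the lid subunit that clamps the core to the base, had 870 ± 64.0 with Dex at 24 h and 789 ± 63.4 with ethanol (SD, n = 5 each), and 835 ± 51.9 with Dex at 6 h and 939 ± 90.8 with ethanol (SD, n = 4 each). The log2 fold change was 0.14 (limma adjusted p = 0.167) at 24 h and -0.17 (adjusted p = 0.196) at 6 h. Psmd6 varied widely. It had 168, 164, 173, 148 and 150 with Dex at 24 h, against 144, 139, 139, 142 and 184 with ethanol, and 335, 380, 453 and 533 with Dex at 6 h, against 418, 382, 675 and 622 with ethanol. At 6 h arrays 3 and 4 were the higher ones in both groups. Its log2 fold change was 0.11 (SE 0.13) at 24 h and -0.28 (SE 0.15, adjusted p = 0.279) at 6 h.

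Of the 4 activators 3 were called at 24 h, against 16.5% of all genes and 26.8% of those above the array median level. With the missing directions 1 of them, Psme2, was called, against 8.89% of all genes. Psme1 and Psme2 encode the partners of the interferon-inducible activator of the core. Psme2 had 451, 533, 478, 509 and 519 with Dex at 24 h, against 727, 656, 652, 607 and 693 with ethanol. Every Dex array lay below every ethanol array, and the level was 0.747 times that of ethanol, or -0.42 on the log2 scale (SE 0.08, limma adjusted p = 0.000838, and 0.0045 with the missing directions). The call was kept without any single 24 h array. At 6 h Psme2 had 399, 445, 399 and 434 with Dex, against 433, 609, 413 and 518 with ethanol, which overlapped, and its log2 fold change was -0.22 (adjusted p = 0.152). Without ethanol array 3, the lowest of its group, Psme2 had an adjusted p of 0.0497, and dropping that array by itself widens the difference. Its partner Psme1 had 1436 ± 55.1 with Dex at 24 h and 1482 ± 71.1 with ethanol (SD, n = 5 each), a difference of -0.05 on the log2 scale (95% interval -0.18 to 0.09), and -0.09 at 6 h. RefSeq also lists Psme2b, a near-identical copy of Psme2, and whether the Psme2 probe also binds it was not tested.

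Psme3 and Psme4 encode nuclear activators. Psme3 had 663, 810, 837, 907 and 798 with Dex at 24 h, against 768, 675, 560, 579 and 638 with ethanol. The lowest Dex array lay below 2 ethanol arrays. The log2 fold change was 0.32 (SE 0.10, limma adjusted p = 0.0227, and 0.0601 with the missing directions), and the call was lost without ethanol array 3 or 4 or Dex array 3 or 4, with adjusted p up to 0.0711. At 6 h it was 0.11 (adjusted p = 0.62).

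Psme4 rose at both times. It had 5532, 4445, 4963, 4483 and 4970 with Dex at 24 h, against 3825, 4272, 4312, 4220 and 4460 with ethanol, and 6858, 7036, 7293 and 6824 with Dex at 6 h, against 6048, 5941, 5788 and 6245 with ethanol. The groups met at 24 h, where 1 Dex array lay under the highest ethanol array, and did not overlap at 6 h. The log2 fold change was 0.21 (SE 0.06, limma adjusted p = 0.0171) at 24 h and 0.22 (SE 0.07, adjusted p = 0.0349) at 6 h, and with the missing directions the adjusted p-values were 0.0793 and 0.143. The call was lost without array 1 of either group at 24 h, and at 6 h without any array other than ethanol array 4 or Dex array 4, with adjusted p up to 0.0616 and 0.0972. A second, dimmer Psme4 probe had log2 fold changes of 0.01 and 0.06.

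The 7 assembly factors include the chaperones of the core rings, Psmg1 to Psmg4, and of the base, Psmd5, Psmd9 and Psmd10. Psmg1, which pairs with Psmg2 to order the alpha ring, had 416, 460, 393 and 516 with Dex at 6 h, against 524, 630, 625 and 569 with ethanol. The groups did not overlap, the level was 0.758 times that of ethanol, and the log2 fold change was -0.40 (SE 0.08, limma adjusted p = 0.00118, and 0.00879 with the missing directions). At 24 h Psmg1 had 376, 428, 409, 434 and 403 with Dex, against 434, 406, 394, 407 and 387 with ethanol. These values intermingled, and the log2 fold change was 0.01 (95% interval -0.13 to 0.16).

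Psmd9 fell at both times. It had 133, 153, 142, 139 and 138 with Dex at 24 h, against 171, 157, 159, 170 and 163 with ethanol, and 230, 219, 227 and 226 with Dex at 6 h, against 290, 248, 365 and 336 with ethanol. At neither time did the groups overlap, and the ethanol arrays at 6 h spread the most. The log2 fold change was -0.22 (SE 0.07, limma adjusted p = 0.0452, and 0.122 with the missing directions) at 24 h and -0.44 (SE 0.08, adjusted p = 0.000827, and 0.00583) at 6 h. The call at 24 h held without Dex array 2 and was lost without any other single 24 h array, with adjusted p up to 0.101, while that at 6 h held without any single 6 h array. A second Psmd9 probe gave 0.14 at 24 h and -0.21 at 6 h and was not called, so the probes disagree in sign at 24 h. Psmg2, the partner of Psmg1, had log2 fold changes of 0.22 (adjusted p = 0.142) at 24 h and 0.21 (adjusted p = 0.301) at 6 h. At 24 h it passed with each time fitted alone (adjusted p = 0.0145) and with array weights (0.0183), and not with the missing directions (0.243). At 6 h it passed without ethanol array 2, the highest of its group, with a log2 fold change of 0.34 (0.0344). Dropping that array by itself widens the difference. Psmd10 (gankyrin) had -0.17 (adjusted p = 0.103) at 24 h and -0.05 at 6 h. At 24 h it passed with each time fitted alone (adjusted p = 0.0324), with a gene's probes averaged (0.0442) and with array weights (0.0297). It did not pass with the missing directions (0.224).

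Psmc3ip, a meiotic recombination cofactor, had log2 fold changes of -0.04 at 24 h and -0.03 at 6 h. Psme3ip1, whose product binds Psme3, had -0.01 and 0.18 (limma adjusted p = 0.176).

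The Dex effect at 24 h was set against that at 6 h in the interaction of time and treatment. Of the 49 members 1 was called, or 2.04%, against 4.94% of all genes, and 0 were called with the missing directions, against 1.22%. At an unadjusted p under 0.05 there were 5 higher and 1 lower of the 49 without them, against 1915 higher and 1951 lower of 19057 genes. The 1 called was Psmg1, whose effect was higher by 0.41 on the log2 scale at 24 h (SE 0.10, limma adjusted p = 0.0206, and 0.1 with the missing directions). Without Dex array 3 of 6 h the adjusted p was 0.0538. Psmd11 had the next smallest p, with a difference of 0.31 (SE 0.10, adjusted p = 0.0806). For Psme2 (-0.20, adjusted p = 0.366), Psmd9 (0.23, adjusted p = 0.255) and Psme3 (0.21, adjusted p = 0.422) a difference between the times was not shown. Over the 40 members above the array median level, the median size of the log2 fold change was 0.0622 at 24 h and 0.105 at 6 h, against 0.116 and 0.108 over 8605 genes.

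**Figure D3:**
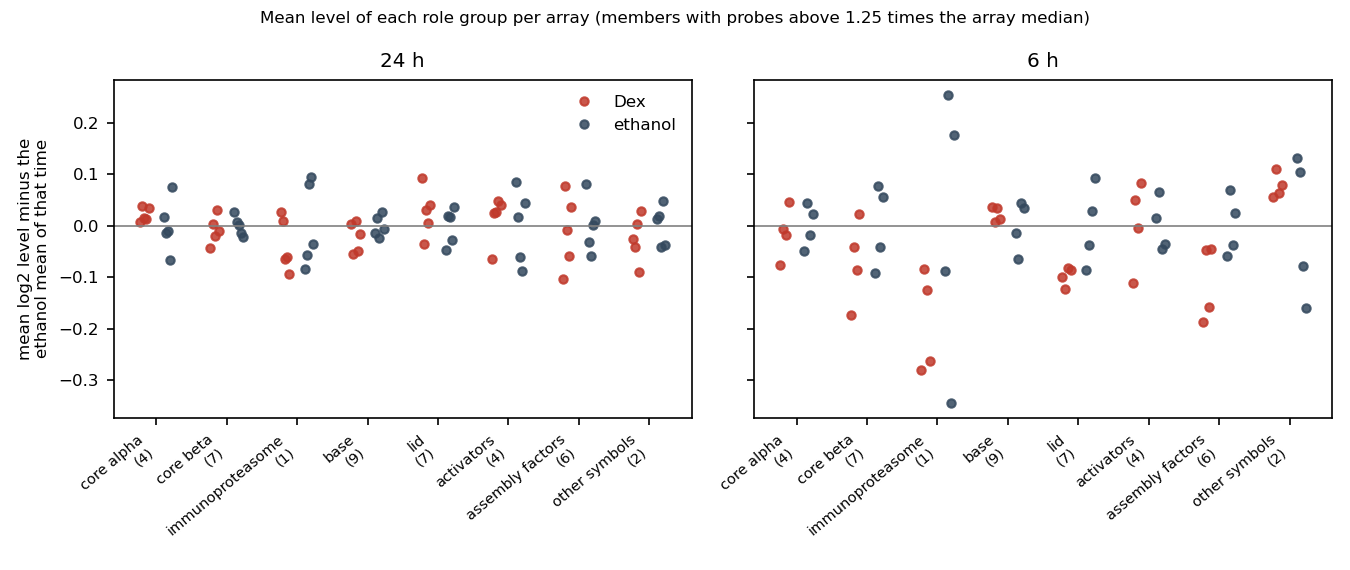
Mean log2 level of each role group on each array, less the ethanol mean of its time, at 24 h (left) and 6 h (right), with Dex left of ethanol. The number of members above 1.25 times the array median is given under each role. In none of the 8 roles do the Dex and ethanol arrays stand fully apart at either time.

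The lid means at 6 h lay close together with Dex. The 7 lid members above the array median level averaged -0.10, -0.12, -0.08 and -0.09 on the Dex arrays, against -0.09, -0.04, 0.03 and 0.09 on the ethanol arrays, as log2 levels less the ethanol mean. The 6 assembly factors so measured averaged -0.19, -0.05, -0.16 and -0.04 on the Dex arrays, against -0.06, 0.07, -0.04 and 0.02 on the ethanol arrays. In both roles the groups overlapped. The mean of the 9 base genes lay within 0.04 of 0 on all 4 Dex arrays at 6 h. The log2 fold changes of single base genes ran from -0.19 (Psmc6) to 0.17 (Psmd4). Members of a role are not replicates, and no test was made on these means.

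The brightest probe was set beside the 37 other probes of members, of which 26 from 20 genes lay above the array median level. This comparison was chosen after the data were seen and fitted over all 45281 probes. At 24 h 3 of the 26 were called lower (11.5%, against 12.8% of the 14814 probes above that level) and 2 higher (against 11.9%). With the missing directions 0 were called at 24 h, where 8.89% of all genes were. At 6 h 7 were called lower (26.9%, against 7.8%) and 0 higher (against 7.18%). With the missing directions 3 were lower at 6 h, where 1.98% of all genes were. These shares with the missing directions are over all 19057 genes, dim ones included, so they are not matched to the 26 probes. At an unadjusted p under 0.05 there were 3 lower and 4 higher at 24 h, and 11 lower and 1 higher at 6 h. Of the 8605 genes above that level, each read from its brightest probe, 1766 were lower and 1762 higher at 24 h. At 6 h 1394 of those genes were lower and 1474 higher. The 3 lower at 24 h were of Psmd2 (log2 fold change -0.22, limma adjusted p = 0.0192), Psmd10 (-0.21, adjusted p = 0.0233) and Psmd14 (-0.20, adjusted p = 0.019), and the 2 higher of Psmd6 (0.18, adjusted p = 0.0159) and Psmg2. Of the 26 probes 22 had a log2 fold change below 0 at 6 h, against 4178 of the 8605 genes, and 20 lay below the brightest probe of their gene. The probes of a gene share its transcripts, so they are not independent.

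The 7 probes lower at 6 h were of Psmb6, Psmb7, Psmb10, Psmd11, Psmd12, Psmd14 and Psmg2. The Psmb7 probe had 3952, 4006, 4320 and 4688 with Dex at 6 h, against 4892, 6098, 5435 and 5928 with ethanol, without overlap. Its log2 fold change was -0.40 (SE 0.07, limma adjusted p = 0.000549), while the brightest Psmb7 probe had -0.13 and the other two -0.17 and -0.11. The Psmd12 probe, for a lid scaffold, had 322, 359, 404 and 430 with Dex, against 434, 461, 578 and 654 with ethanol, a difference of -0.48 on the log2 scale (SE 0.11, adjusted p = 0.00736) where the brightest had -0.10. The second Psmd14 probe fell as the brightest did, with 1876, 1773, 1894 and 1760 with Dex against 2494, 2242, 2360 and 2241 with ethanol (log2 fold change -0.35, adjusted p = 0.000735).

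For Psmg2 the probes opposed each other at 6 h. The dimmer one had 703, 970, 744 and 976 with Dex, against 944, 1082, 1030 and 1057 with ethanol (log2 fold change -0.29, limma adjusted p = 0.0295), while the brightest had 0.21. At 24 h they had 0.24 (adjusted p = 0.0317) and 0.22, and the remaining Psmg2 probe had 0.14 at 24 h and 0.12 at 6 h. The lower Psmb10 probe had -0.37 (adjusted p = 0.0346), the Psmd11 probe -0.34 (adjusted p = 0.0167) and the Psmb6 probe -0.31 (adjusted p = 0.014) at 6 h. With all probes of a gene averaged, 7 members were called at 6 h, 0 higher and 7 lower, against 728 higher and 788 lower of 19057 genes. Psmb6 (log2 fold change -0.23, adjusted p = 0.00852), Psmb7 (-0.20, adjusted p = 0.04999) and Psmd12 (-0.29, adjusted p = 0.0126) were then lower at 6 h, and Psme4 was no longer called. Which transcripts or ends the probes of a gene read was not analysed here. Psmb5, Psme2, Psme3 and Psmg1 had 1 probe each.

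**Figure D4:**
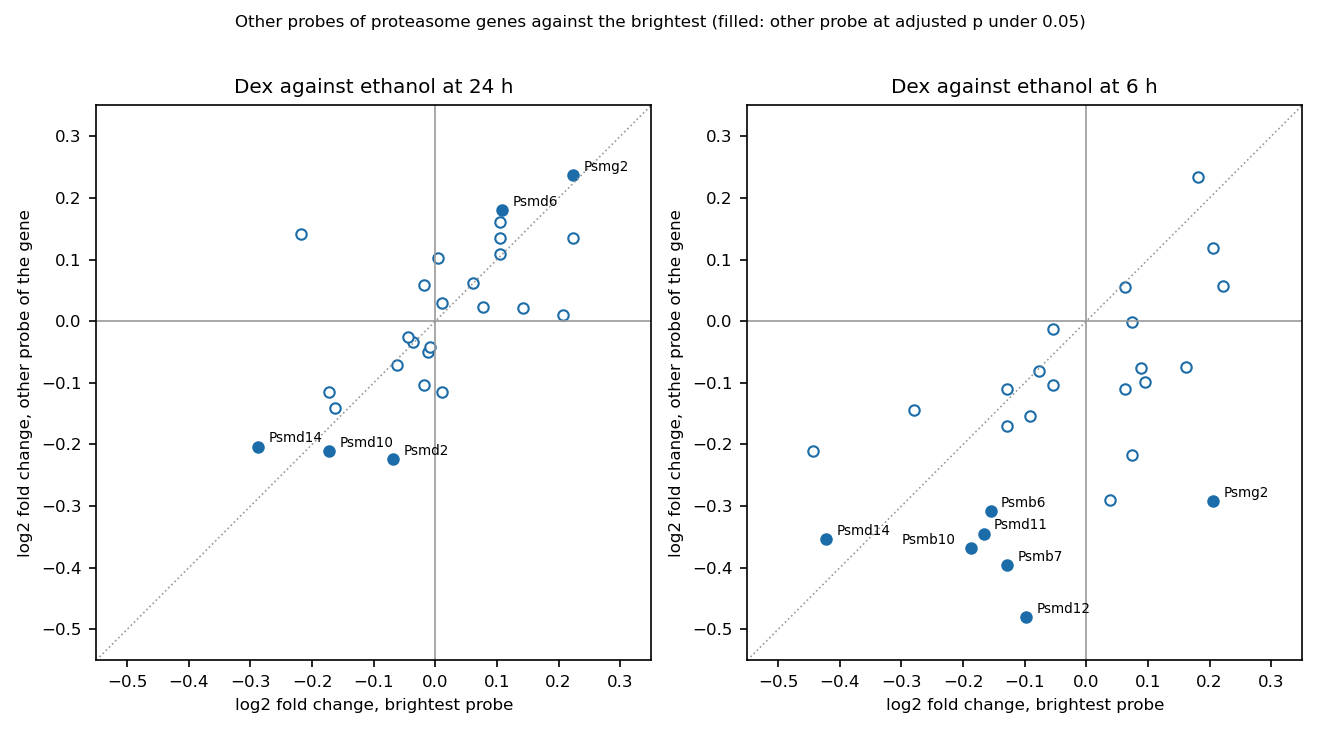
Log2 fold change of Dex over ethanol of 26 other probes (vertical) against the brightest probe of the same gene (horizontal), at 24 h (left) and 6 h (right). Filled points are other probes at an adjusted p under 0.05, and the dotted line marks equal values. At 6 h 20 of the 26 points lie below that line, and all 7 filled points lie below 0.

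Around the proteasome, 21 of 32 further genes of the pathway were measured, among them assembly, shuttle and deubiquitinating factors, regulators and the muscle ligases. At each time 2 rose and 0 fell by limma, Fbxo32 and Trim63, also with the missing directions. At an unadjusted p under 0.05 there were 4 higher and 3 lower at 24 h (2808 and 2767 of 19057 genes), and 4 higher and 2 lower at 6 h (2137 and 2095). Fbxo32 had 865, 1219, 1000, 1110 and 1226 with Dex at 24 h, against 580, 494, 466, 474 and 434 with ethanol, a difference of 1.14 on the log2 scale (SE 0.08, limma adjusted p = 6.21e-10), and 0.60 (adjusted p = 0.000113) at 6 h. Trim63 had 438, 391, 389, 418 and 453 with Dex at 24 h, against 294, 309, 317, 251 and 342 with ethanol, a log2 fold change of 0.47 (adjusted p = 0.00594), and 0.93 (adjusted p = 2e-05) at 6 h. For both ligases the groups did not overlap at either time.

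None of the measured genes that act on the proteasome itself was called at 24 h or at 6 h. In the interaction 1 of the 21 genes was called higher, Fbxo32 (by 0.54, limma adjusted p = 0.0147). The shuttle factor gene Ubqln1 was called lower (-0.31, adjusted p = 0.0276), with 0.17 at 6 h and -0.14 at 24 h. Of all genes 2.46% were higher and 2.48% lower there, and with the missing directions 0 of the 21 were called. Nfe2l1, the transcription factor known to raise proteasome genes when the proteasome is inhibited, had 8383 ± 354 with Dex at 24 h and 7901 ± 331 with ethanol (SD, n = 5 each), a difference of 0.09 on the log2 scale (limma adjusted p = 0.316), and 0.07 at 6 h. Pomp, which matures the core, had 0.05 and -0.02, Sem1, a small lid subunit, -0.10 and -0.04, and Usp14, a deubiquitinase on the base, -0.08 and -0.27 (adjusted p = 0.214), at 24 h and at 6 h. Ecpas, which holds base and core together, had -0.18 and -0.17.

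**Figure D5:**
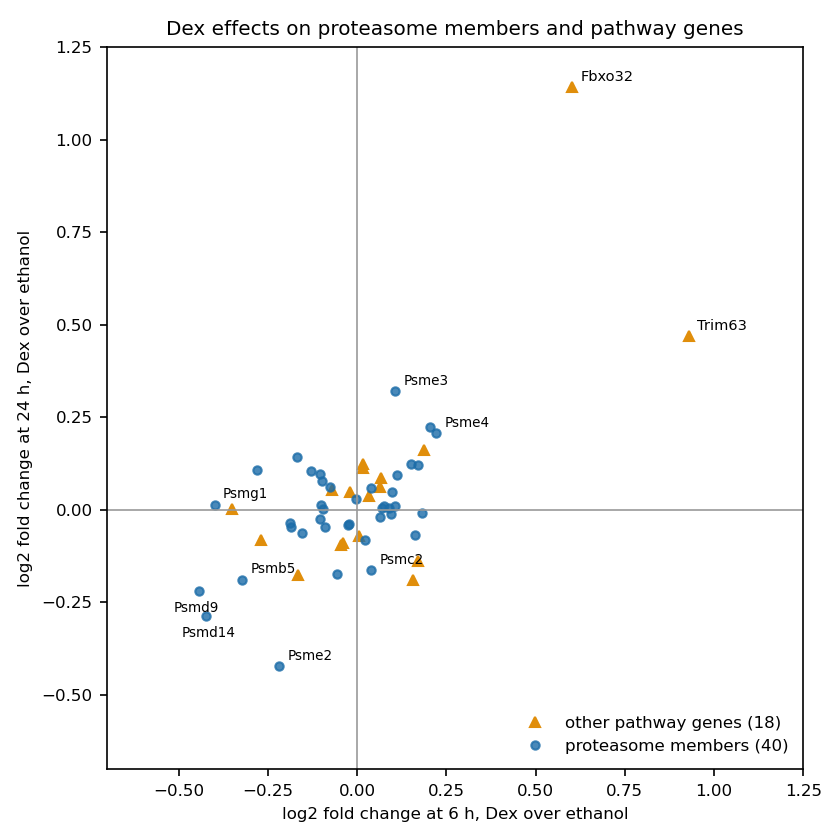
Log2 fold change of Dex over ethanol at 24 h (vertical) against 6 h (horizontal) for 40 proteasome members (circles) and 18 other pathway genes (triangles) above 1.25 times the array median. The proteasome members lie within 0.5 of 0 on both axes, and Fbxo32 and Trim63 lie above 0.5 on the horizontal one.

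Some markers of other cell states moved at 24 h. Myog, a myogenic transcription factor, fell by 0.32 and Ckm, the muscle creatine kinase, rose by 0.30 on the log2 scale, 1 lower and 1 higher of 9 myotube markers (limma adjusted p-values of 0.0105 and 0.0112), and 0 were called by limma at 6 h (0 at an unadjusted p under 0.05). Cdk1, a cell cycle kinase, rose by 0.43 at 24 h (adjusted p = 0.000355) and had -0.06 at 6 h. It was the 1 of 4 proliferating myoblast markers called at 24 h, and Myf5, a myoblast transcription factor near the array median, the 1 at 6 h (0.33, adjusted p = 0.0175). The other markers of that list did not move with Cdk1 at 24 h. Top2a had -0.19 (limma adjusted p = 0.0564), Pax7, near the array median, -0.10 and Myf5 0.06. Of 5 fibroblast markers 2 rose and 3 fell at 24 h, the matrix genes Dcn, Lum and Col1a1 falling by 0.34, 1.09 and 0.56. Pdgfra, a growth factor receptor, rose by 0.60 at 24 h (adjusted p = 1.36e-05) and by 0.59 at 6 h (adjusted p = 0.00012), without overlap at either time, and was the 1 called at 6 h. Thy1, a surface protein near the array median, rose by 0.21 at 24 h. The summed level of those 5 markers, most of it from Dcn, was 10078 to 11553 with Dex at 24 h and 12458 to 14551 with ethanol, and 18968 to 21912 with Dex at 6 h and 18864 to 22470 with ethanol. Fewer cells of a kind and less RNA per cell cannot be told apart in such samples, and the part of these shifts in the proteasome values was not tested.

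Within a group the members above the array median level varied by a median SD of 0.11 on the log2 scale, the same to 2 decimals as over all genes above it. Across those 40 members the Pearson correlation of the effects at 24 h and 6 h was 0.514, against 0.636 over 8605 genes, and it is given as a description, since each time has its own ethanol arrays but the points share them.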

How the data were processed

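The authors deposited linear probe intensities from Illumina mouse whole-genome arrays. They came from lumi, per the submitters' processing notes, and its version and normalization are not stated in the files or labels used here. Intensities are therefore compared within a time only. The design text names limma for the authors' own tests, which were not used here.

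Of 45281 probes 34885 had 1 gene symbol, 18 several and 10378 none. Log2 of the deposited intensity was taken with a pseudocount of 0. For the tests, limma fitted 4 group means over the 18 arrays (version 3.58.1 in R 4.3.3, lmFit and eBayes, 14 residual degrees of freedom, or 10 with the missing directions as covariates). Benjamini-Hochberg adjustment ran over the 19057 genes, and over the 45281 probes for the other probes of members. A direction was taken as missing where it held less than 0.01% of the spread of 786 genes with a mean log2 value above 12. SE and 95% intervals come from the model, and the test was checked on simulated data. The simulated arrays were drawn as independent, so that check does not bear on the missing directions. The number of arrays limits the precision. Detection p-values and scanner files were not used here.

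The named genes are the members called in a comparison, the 2 largest changes of each role group at each time, and 10 always named. The members, lists and alternatives were chosen with earlier results of these data known. The alternatives were each time alone, the mean of a gene's probes, quantile normalization, 50 added before log2, the lowest value subtracted, dim genes left out, array weights, the replicate number as a block, missing directions, the 24 h arrays numbered 1 left out, and each array left out. Deviations of same-numbered samples correlated at 0.055 to 0.256 for 3 numbers and -0.08 for 1 at 6 h, and at -0.93 to -0.19 at 24 h. The numbers were not taken as pairs in the main model, which leaves out the dependence seen at 24 h.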

Additional observations from a re-analysis of the deposited data

Results flagged for a closer look

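In 108 groups of arrays (27 named members in 4 groups), 6 held 1 array far from the others, and chance alone gives about 1 in 20. With Dex at 6 h, Psma6 was at 102.5 on array 3 where the others lay between 86.5 and 87.5, Psmb9 at 110.2 on array 1 (others 90 to 92.2) and Psmb11 at 103.8 on array 1 (others 97.3 to 97.7). Psmb8 with ethanol was at 97.6 on array 5 at 24 h (others 89.5 to 91.2) and at 102.3 on array 4 at 6 h (others 111.9 to 112.6). These 4 genes lie near the array median. Psmd6 with ethanol at 24 h was at 183.8 on array 5 (others 138.5 to 143.7), and its Dex effect did not pass the test.

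Psmg1 was the 1 member whose Dex effect differed between the times by the test of the interaction, higher by 0.413 on the log2 scale at 24 h.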

How the results depend on the processing

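The number of members called at 24 h (5) was 8 with each time fitted alone, 2 with the lowest value of each array subtracted, 12 with array weights, 3 with the replicate number as a block, 1 with the missing directions, 3 without both 24 h arrays numbered 1, and 2 to 5 with single arrays left out. The number at 6 h (5) was 2 with each time alone, 2 with the lowest value subtracted, 3 with array weights, 2 with the missing directions, and 2 to 5 with single arrays left out. With all probes of a gene averaged it was 7 (0 higher and 7 lower, where the brightest probes gave 1 higher and 4 lower). For the interaction (1) it was 3 with all probes of a gene averaged, 0 with the lowest value subtracted, 0 with the missing directions, and 0 to 2 with single arrays left out. Of the samples 1 of 9 correlated best with its own replicate number, and at 24 h all 5 correlations were below 0, down to -0.93. Same-numbered Dex and ethanol samples were thus not independent at 24 h. The main model treats them as independent, so its p-values at 24 h may be too small. The replicate block gave 4 calls at 6 h and 1 for the interaction. The median of the members at 6 h ran from -0.060 to 0.012 with single arrays left out. Psme2 at 24 h and Psmg1 and Psmd9 at 6 h kept their calls under all 10 alternatives. Over all genes the calls at 24 h (3142) were 5552 with array weights and 1694 with the missing directions. Those at 6 h (1726) were 908 with the time alone, 1079 with array weights and 850 with the missing directions, and for the interaction (942) 590 with the lowest value subtracted, 532 with the block and 232 with the missing directions. Over the named members, 574 values kept their direction and side of the threshold, 41 lost the call, 19 gained one and 13 uncalled values changed sign. The causes were not tested.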
